A study of Rattus norvegicus with 6 samples.

Results

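Small RNA loci are the places in the annotated genome that encode short noncoding RNAs or the transcripts they are cut from. Members were all loci whose annotated transcript type was miRNA, snoRNA, snRNA, scaRNA, misc_RNA, rRNA or ribozyme and that had at least 1 count in any library. Of 5224 loci of these types in the table, 2298 met this rule, out of 61453 loci of all types. A further 266 loci joined one of these types with another type and were not counted as members; they held 3.70% of all counts.

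The libraries came from corneal epithelium, scraped with a blade from the trimmed corneas of male Brown Norway rats. STZ rats had received a single intraperitoneal dose of 50 mg/kg streptozocin, which destroys insulin-producing beta cells, and were taken as diabetic at blood glucose above 16.67 mmol/l. NOR rats had received citrate buffer, and both groups were sampled after 16 weeks. There were 3 STZ and 3 NOR libraries of total RNA, from 6 rats in all and 6 corneas of each group, and which corneas went into which library was not given in the sources used here, so p-values measure the spread between libraries only. STZ is a model of insulin loss, and its effects cannot be told apart from those of the drug itself. Totals ran over 62288901 to 87040253 counts in STZ and 76500184 to 81139312 counts in NOR, so that a locus at 0 counts could still hold up to 0.0482 CPM (counts scaled to the library total, as counts per 1000000) in the shallowest library. Markers of corneal epithelium were high in every library, with Krt12 at 3858 to 4455 FPKM in STZ and 3660 to 4223 FPKM in NOR (fragments scaled to transcript length and library size). Lens markers differed between libraries of the same group, and the 6 genes listed summed to 8.35 to 1203 FPKM in STZ and 108 to 352 FPKM in NOR. The 5 genes found of keratocytes, the cells of the corneal stroma, summed to 806 to 923 FPKM in STZ and 898 to 1112 FPKM in NOR. Of these, Lum was lower in every STZ library (102 to 123 FPKM) than in every NOR library (148 to 172 FPKM). Kera, Dcn, Col1a1 and Aldh1a1 overlapped between groups. The part of stromal tissue in the values below was not tested.

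Small RNAs act inside RNA-protein particles. Small nuclear RNAs (snRNAs) form the core of the spliceosome, small nucleolar RNAs (snoRNAs) and small Cajal body RNAs (scaRNAs) guide methylation and pseudouridylation of ribosomal RNA and snRNA, and microRNAs (miRNAs) are cut from a hairpin in a longer primary transcript and then repress mRNAs through a short seed. Most vertebrate snoRNAs, and many miRNAs, lie in introns of other genes and are released when that transcript is processed, whereas U1, U2, U6, 7SK and the RNA of RNase P have promoters of their own. The type misc_RNA holds 7SK, the vault RNA, Y RNAs, the RNA of the signal recognition particle and the telomerase RNA. In such a library the reads on a miRNA locus include its hairpin and primary transcript, and the size range of the fragments kept was not given in the sources used here, so the values below are not levels of mature miRNAs.

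The miRNAs whose loci carry the results are shown with their mature sequences from RefSeq (rat build GRCr8), matched by symbol, with the seed (bases 2 to 8) in capitals. The first set belongs to single or joined loci that are known miRNAs of epithelia or had many counts. All but that of miR-22 are described below. The joined locus of Mir22 and Mir6326 had 4728 bases, 10183 summed counts and a mean of 6.88 FPKM. In this set, miR-184 and miR-205 are abundant miRNAs of corneal and other surface epithelia.
rno-miR-184: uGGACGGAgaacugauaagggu
rno-miR-205: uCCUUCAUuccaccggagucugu
rno-let-7c-5p: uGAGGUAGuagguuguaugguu
rno-let-7b-5p: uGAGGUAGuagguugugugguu
rno-miR-22-3p: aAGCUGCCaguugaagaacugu
rno-miR-21-5p: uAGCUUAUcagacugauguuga
The second set comes from transcripts that carry several miRNAs, or whose neighbours are listed apart from them.
rno-miR-221-3p: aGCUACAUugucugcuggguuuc
rno-miR-222-3p: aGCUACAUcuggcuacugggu
rno-miR-23a-3p: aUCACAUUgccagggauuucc
rno-miR-27a-3p: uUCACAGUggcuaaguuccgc
rno-miR-24-3p: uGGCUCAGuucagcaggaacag
rno-miR-18a-5p: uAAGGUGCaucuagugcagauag
rno-miR-20a-5p: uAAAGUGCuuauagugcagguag
rno-miR-19a-3p: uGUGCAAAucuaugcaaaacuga
rno-miR-19b-3p: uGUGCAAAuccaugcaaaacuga
The third set belongs to loci with few counts whose values did not overlap between groups, or to long loci chosen after their values had been seen.
rno-miR-365-3p: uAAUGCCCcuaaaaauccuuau
rno-miR-877: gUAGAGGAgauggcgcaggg
rno-miR-181b-5p: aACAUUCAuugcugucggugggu
rno-miR-675-3p: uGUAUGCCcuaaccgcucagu
Seeds were shared by let-7b and let-7c (GAGGUAG), by miR-221 and miR-222 (GCUACAU) and by miR-19a and miR-19b (GUGCAAA). RefSeq hairpins matched 199 symbols on 197 of the 684 miRNA loci.

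By number, miRNA loci led with 684 members, followed by snoRNA with 678, snRNA with 589, misc_RNA with 215, rRNA with 89, scaRNA with 27 and ribozyme with 16. Most were barely covered. The median member had 20 counts over the 6 libraries, 600 members had 5 or fewer, and 984 had counts in every library. A mean FPKM of at least 0.5 was reached by 920 members (40.0%), which made up the set tested, and 1378 fell below it. That share ran from 74.1% of scaRNA loci and 51.0% of snoRNA loci down to 35.2% of miRNA loci and 2 of 89 rRNA loci. Only 36 members had a mean above 100 FPKM, and 17 of these were snRNA loci.

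Length split the members into a large short group and a small long one, which the plot of length against level shows. The median length was 110 bases and the quartiles were 94.0 and 134 bases, and class medians ran from 96 bases for miRNA to 285 bases for misc_RNA. Still, 50 members were longer than 1000 bases, up to 355547 bases for a joined miRNA locus on chromosome 17. These 50 loci held 45.8% of all counts on members. In the miRNA class, 17 long loci held 97.7% of the counts, in the rRNA class 1 long locus held 98.3%, and the share was 56.3% for the 15 long snoRNA loci and 43.6% for the 14 long snRNA loci. Among matched miRNA symbols, 170 had a locus of exactly the length of the RefSeq hairpin, and the median matched locus of up to 1000 bases had 15 counts. For a part of the long loci the deposited FPKM had been scaled by a much shorter transcript: the ratio of counts to FPKM of the U1 locus of 24232 bases on chromosome 6 implies a length of 351 bases.

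**Figure D1:**
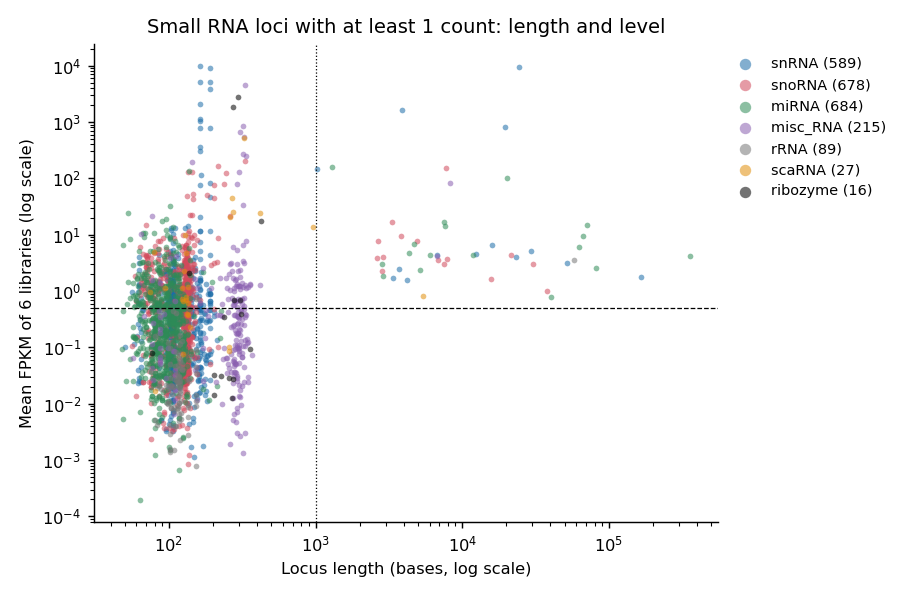
Length of each of the 2298 small RNA loci (x axis, bases, log scale) against its mean FPKM over 6 libraries (y axis, log scale), coloured by class with the number of loci in the legend; the dotted line marks 1000 bases and the dashed line 0.5 FPKM. Nearly all loci form a column around 110 bases, and 50 loci lie to the right of the dotted line.

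Members took 2.43% of all counts but, being short, 16.5% to 23.6% of the summed FPKM of a library. Their share of counts was 2.69%, 2.87% and 2.22% in the STZ libraries, against 2.46%, 2.41% and 1.96% in the NOR libraries. The means were 2.59% ± 0.337 in STZ and 2.28% ± 0.272 in NOR (SD, n = 3 each), the ranges overlapped, and the exact permutation p (both sides) was 0.3, where 3 against 3 libraries cannot give less than 0.1. The snRNA class made up most of this share, with 1.58% ± 0.251 in STZ and 1.31% ± 0.236 in NOR (SD, n = 3 each, exact permutation p = 0.3). The only class without overlap was misc_RNA. It held 0.386%, 0.404% and 0.338% of counts in STZ, against 0.327%, 0.313% and 0.335% in NOR. This gives the smallest exact permutation p of 0.1 and an adjusted p of 0.56 over the 7 classes. The separation rests on AABR07000392, a misc_RNA locus described below. With its counts left out, the lowest STZ library falls below the highest NOR library and the groups overlap.

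The spliceosomal snRNAs and other repeated families supplied the highest levels. The annotation lists many near-identical copies of each, so a value on a single copy is uncertain, and how reads that match several copies were placed was not given in the sources used here. All 107 U1 loci with counts, whose RNA pairs with the start of introns, summed to 10733, 9282 and 7641 CPM in STZ, against 8210, 8021 and 6296 CPM in NOR. Summed counts of the 47 U2 loci, whose RNA pairs with the branch site, were 4701, 8138 and 4911 CPM in STZ, against 5647, 5798 and 3404 CPM in NOR. Both families overlapped between groups, with exact permutation p of 0.3 for U1 and 0.6 for U2. The U6 sum was nearly level, at 377, 352 and 378 CPM in STZ and 386, 374 and 397 CPM in NOR over 340 loci (p = 0.3, exact permutation test). The 7SK sum, of the RNA that holds the elongation factor P-TEFb inactive, was 2952, 2984 and 2634 CPM in STZ, against 2683, 2535 and 2617 CPM in NOR over 170 loci (p = 0.2, exact permutation test).

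Other RNAs had a name held by a single locus, so no copies of that name had to be summed. For RNase P, a further 13 loci carried the name RNaseP_nuc. These 13 loci summed to 22.3, 5.35 and 3.36 CPM in STZ, against 4.27, 3.01 and 20.8 CPM in NOR, and are not part of the Rpph1 values. Rpph1, the RNA of RNase P that trims the leader of precursor tRNAs, lay at chr15:27738972-27739269 (rn6, minus strand), overlapping Parp2 on the opposite strand. It had 996, 1233 and 840 CPM in STZ, against 975, 928 and 644 CPM in NOR, a log2 fold change of 0.30 with a standard error (SE) of 0.22. The RNA of RNase MRP, which cuts the ribosomal RNA precursor, had 613, 836 and 404 CPM in STZ and 610, 550 and 475 CPM in NOR (log2 fold change 0.22, SE 0.27). The STZ and NOR libraries overlapped for both RNAs, and the RNase MRP value turned negative without STZ replicate 2. The vault RNA, named for the ribonucleoprotein particle that holds it, had 50.5, 39.8 and 19.7 CPM in STZ and 28.3, 27.2 and 23.4 CPM in NOR (log2 fold change 0.51, SE 0.33), with STZ replicate 3 below every NOR library. Terc, the template RNA of telomerase, had 0.574, 1.38 and 0.482 CPM in STZ and 0.380, 0.418 and 0.456 CPM in NOR. Its groups did not overlap, but its log2 fold change of 1.00 (SE 0.52) was 0.35 without STZ replicate 2. With edgeR's quasi-likelihood test the adjusted p was 0.991 for each of these 4 RNAs. Over the 27 families and single RNAs compared as sums, no adjusted exact permutation p was below 0.771.

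**Figure D2:**
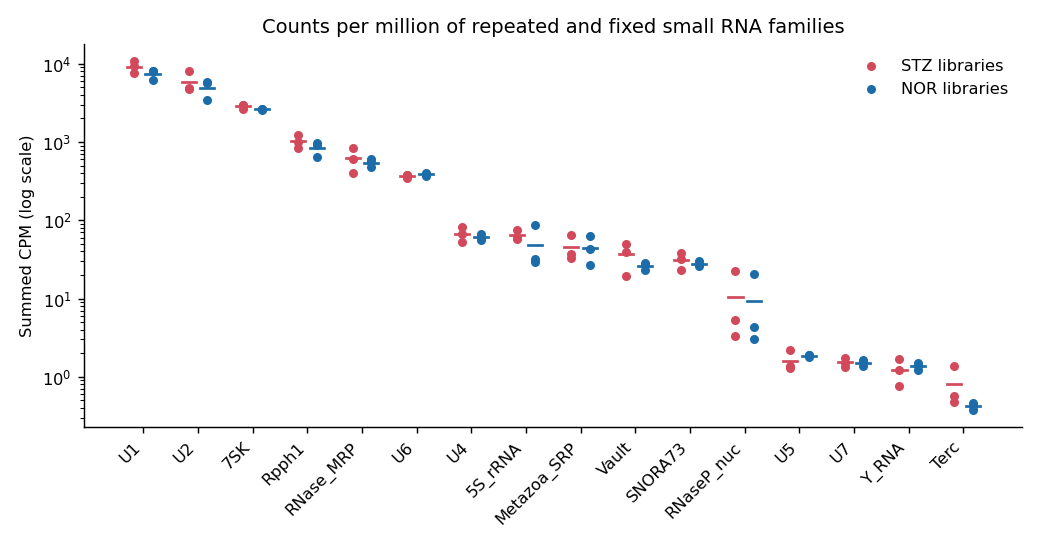
CPM summed over all loci of 16 named families or RNAs (y axis, log scale), with 1 point for each library and a bar at the group mean, STZ libraries left of NOR libraries. U1, U2 and 7SK lie highest, Terc lies lowest, and only Terc has all 3 STZ points above all 3 NOR points.

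Some copies of a family, most often of U1, did not share the stability of their sum. Of the 40 snRNA loci with at least 600 summed counts, 12 (30.0%) differed by more than 3-fold between libraries of 1 group, against 9.95% of 26128 other loci of that depth. The U1 locus of 3887 bases at chr10:74738869-74742755 had 854, 665 and 768 CPM in STZ, against 743, 712 and 2.19 CPM in NOR. NOR replicate 3 thus stood 339-fold below the highest NOR library on this copy, while the sum of all U1 loci differed by no more than 1.40-fold within a group. A U1 copy on chromosome 2 (chr2:198623759-198623922) had 2026, 282 and 275 CPM in STZ and 1121, 1497 and 585 CPM in NOR, with the single high STZ value in replicate 1. Among copies with at least 600 summed counts, 9 of 17 for U1 and 2 of 8 for U2 differed by more than 3-fold within a group. For 7SK these were 3 of 14 and for U6 only 1 of 11, with medians of 1.57-fold and 1.43-fold. The main 7SK copy at chr8:85480292-85480622, with 62.1% of the family's counts, differed by 1.39-fold within NOR, and another copy of 318 bases differed by 42.9-fold.

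**Figure D3:**
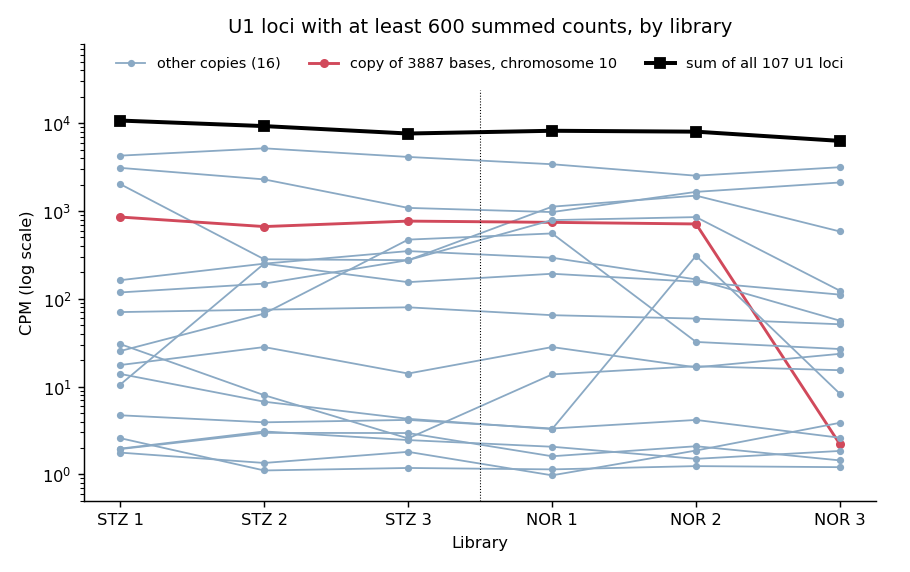
CPM (y axis, log scale) of the 17 U1 loci with at least 600 summed counts in each library (x axis, STZ libraries left of the dotted line), with lines joining the values of 1 locus and black squares for the sum over all 107 U1 loci. Single copies cross each other, the red copy drops to 2.19 CPM in NOR 3, and the sum stays between 6296 and 10733 CPM.

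Most counts on miRNA loci came from a few long loci, and how much of these counts is primary miRNA transcript was not tested. The Mir184 locus (chr8:97156131-97176239, minus strand, 20109 bases), whose mature sequence heads the list above, took 63.4% of all counts on miRNA loci and had a mean of 99.7 FPKM. It had 2650, 1901 and 1917 CPM in STZ, against 2683, 2573 and 2019 CPM in NOR, a log2 fold change of -0.14 (SE 0.19) with overlapping groups. The Mir205 locus (chr13:112228475-112236002, 7528 bases) had 113, 144 and 139 CPM in STZ and 141, 147 and 121 CPM in NOR. Transcripts of both loci were thus present in all 6 libraries at levels within the spread of the groups. The locus that joins Mirlet7c2 with Mirlet7b, whose products share the let-7 seed, spanned 62609 bases and had 243, 253 and 213 CPM in STZ against 254, 228 and 271 CPM in NOR.

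Clustered miRNAs were listed in different ways. The locus that joins Mir221 with Mir222 (chrX:3603950-3685847), whose miR-3p products share a seed, had 45.5, 48.5 and 66.5 CPM in STZ and 35.6, 36.5 and 60.4 CPM in NOR (log2 fold change 0.31, SE 0.23). Mir27a and Mir23a shared the locus chr19:25311141-25318822, with 11.4, 6.15 and 8.79 CPM in STZ and 12.4, 9.06 and 13.2 CPM in NOR (log2 fold change -0.37, SE 0.26). The third member of that cluster, Mir24-2, had a short locus of its own next to it, and all 3 STZ libraries there (20, 9 and 13 counts) lay below the 3 NOR libraries in CPM (31, 18 and 21 counts). The cluster of Mir18a, Mir19a, Mir20a, Mir19b1 and Mir92a1 on chromosome 15, whose primary transcript is known as a target of Myc, was listed hairpin by hairpin with 2 to 18 counts in each library for Mir18a and Mir19a, which were tested, and at most 5 counts for the others, which fell below the filter. Mir21, known as a miRNA of proliferating and injured epithelia, had 52, 12 and 31 counts in STZ and 29, 47 and 29 counts in NOR on a locus of 92 bases.

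The long miRNA loci Mir675, the Sox2 locus and Mir181b1 were chosen after their values had been seen. Mir675 and the Sox2 locus varied widely between libraries, and Mir181b1 varied less. Mir675, which is cut from the imprinted H19 RNA, had 1.54, 16.2 and 2.37 CPM in STZ and 7.72, 19.6 and 3.69 CPM in NOR. Replicate 2 of each group was highest, and the log2 fold change of -0.58 (SE 0.97) became 0.29 without NOR replicate 2. The locus named AABR07010030;Sox2, an assembled transcript of 40029 bases that runs through the Sox2 gene, had 0.563, 3.68 and 0.265 CPM in STZ and 0.570, 0.170 and 0.579 CPM in NOR. All 6 lens genes listed were also highest in STZ replicate 2. They were lowest in STZ replicate 3, whereas this locus was lowest in NOR replicate 2. The part of lens tissue in the high value was not tested. Sox2 itself, a transcription factor of lens and other progenitor cells, had 1.90 FPKM in STZ replicate 2, inside the range of 0.968 to 3.07 FPKM of the NOR libraries. Mir181b1 had 8.07, 10.3 and 14.9 CPM in STZ, against 15.4, 16.6 and 12.8 CPM in NOR (log2 fold change -0.41, SE 0.24), where STZ replicate 3 lay above NOR replicate 3.

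Most members lay in another gene. In all, 1329 members (57.8%) overlapped a locus of another annotated type, 1307 of them a protein-coding one, and 1312 were covered over at least 90% of their length. On the same strand as the host, as release from an intron requires, lay 770 members (33.5%), and 559 lay only opposite one. The same-strand share was 55.6% for scaRNA, 39.1% for snoRNA, 37.6% for miRNA, 25.8% for snRNA and 24.2% for misc_RNA. Among the 229 snRNA loci tested, 29.3% had a same-strand host, against 56.9% of the 346 snoRNA loci tested. Whether counting used strand is not stated, so reads of a member and of a host on the opposite strand cannot be told apart.

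A host transcript usually stood higher than the small RNA inside it. Over 403 tested members of up to 1000 bases with a same-strand host, the median ratio of the member's FPKM to that of its host was 0.205 (quartiles 0.1002 and 0.435), and 42 exceeded 1. By class these 42 were 19 snoRNA, 7 snRNA, 6 miRNA, 5 scaRNA, 4 misc_RNA and 1 ribozyme loci. Gm22009, a scaRNA in Kpna4 (an importin), had a mean of 526 FPKM, which is 55.9 times that of Kpna4 at 9.42 FPKM. Scarna10, annotated here as snoRNA, in the condensin gene Ncapd2 had 201 FPKM, or 37.7 times its host. Gm22988 in Eif4a1, an RNA helicase of translation initiation, had 130 FPKM, or 3.58 times the joined locus of Eif4a1 and Senp3, and Gm26397 in Tomm20, a receptor of the mitochondrial outer membrane, had 132 FPKM, or 3.19 times its host. Gm25835 and Gm24029, which like Gm22988 lie in the joined locus of Eif4a1 and Senp3, had 9.25 and 8.66 FPKM, so members of that host differed by more than 10-fold in level. In Rpl4, a ribosomal protein gene at 180 FPKM, 5 tested snoRNAs had 1.35 to 4.91 FPKM.

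**Figure D4:**
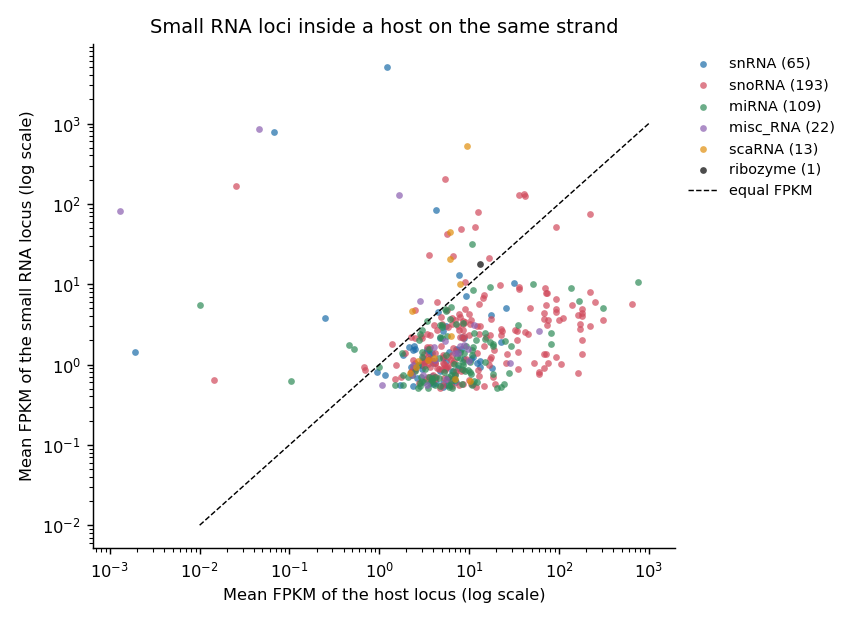
Mean FPKM of the host locus (x axis, log scale) against mean FPKM of the small RNA locus inside it on the same strand (y axis, log scale) for 403 tested members of up to 1000 bases, coloured by class, with a dashed line at equal FPKM. Most points lie below the line, at a median ratio of 0.205, and 42 lie above it.

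Opposite-strand neighbours included some of the highest values. AABR07058922, a miRNA locus of 1289 bases (chr7:143321922-143323210), had the highest FPKM of its class, with a mean of 159 FPKM. It overlaps the joined keratin locus of Krt5, Krt72 and Krt1 at 1694 FPKM on the opposite strand, and its CPM was 205, 219 and 264 in STZ and 208, 219 and 288 in NOR. By contrast AC099089, a short locus of 138 bases (chr10:45297853-45297990) with a mean of 136 FPKM, lies opposite Trim17 at only 0.723 FPKM. It had 23.7, 22.6 and 23.7 CPM in STZ, against 22.9, 20.3 and 15.2 CPM in NOR (log2 fold change 0.29, SE 0.18).

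The comparison of STZ with NOR asked whether any small RNA locus differed between diabetic and normal epithelium. In edgeR's quasi-likelihood test, fitted and adjusted over all 42551 loci whose mean FPKM reached 0.5, a locus was called where the adjusted p fell under 0.05 and the fold exceeded 1.2. That rule called 6 loci (0.0141%), and 0 of the 920 members were among them. DESeq2 called 99 loci (0.233%) and limma on log2(FPKM + 1) called 11 (0.0259%), again with 0 members in each. At an unadjusted p under 0.05, edgeR gave 15 members (1.63%) against 4.14% of all loci tested, with 10 members higher in STZ, against 2.32% of all loci, and 5 lower, against 1.82%. Members tested were shallower, with a median of 92 summed counts against 1075 for all loci tested. At 600 or more counts the edgeR shares were 4.58% of members and 4.30% of other loci. At 60 to 600 counts they were 1.46% and 3.97%, and below 60 counts 0.645% and 15.5% of only 58 other loci. DESeq2 gave 19 members (2.07%) against 4.99% of all loci (2.92% higher, 2.07% lower), and limma 55 members (5.98%) against 4.8% of all loci (2.44% higher, 2.35% lower). All libraries of one group lay above all of the other in CPM for 80 members (8.70%), against 9.75% of all loci. Of these, 43 were higher in STZ, against 3.8% of all loci tested in that direction, and 37 were lower, against 5.96%.

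Fold changes of members centred near 0. The median log2 fold change was 0.03 over the 920 members and -0.001 over all loci tested, and 488 members were above 0 and 432 below. By class the median was 0.08 for 229 snRNA loci, -0.04 for 346 snoRNA loci, 0.08 for 241 miRNA loci, 0.03 for 76 misc_RNA loci and 0.05 for 20 scaRNA loci. The spread followed depth, as the plot of fold change against counts shows. For 310 members with fewer than 60 summed counts the median SE of the log2 fold change was 0.949, for 479 members with 60 to 600 counts it was 0.673, and for 131 members with at least 600 counts it was 0.264, against 0.226 for 25817 other loci of that depth. A 2-fold difference in a member of the shallowest group was therefore about as large as 1 SE, and could not be detected at this depth.

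**Figure D5:**
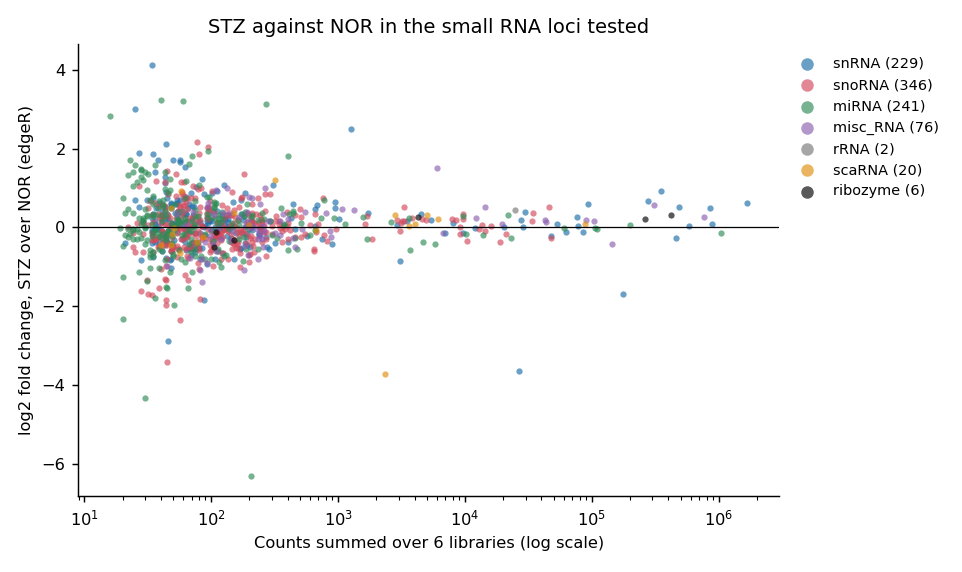
Log2 fold change of STZ over NOR from edgeR (y axis) for the 920 small RNA loci tested against their counts summed over 6 libraries (x axis, log scale), coloured by class. The spread narrows with counts, from a median SE of 0.949 under 60 counts to 0.264 at 600 counts or more, and none was called.

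Among snRNA loci, the 4 with an unadjusted p under 0.05 in edgeR were all U1 copies, and they did not go one way: 3 were higher and 1 was lower in STZ. The locus at chr6:75590195-75614426, which holds the most counts of all members, had 4276, 5181 and 4133 CPM in STZ, against 3413, 2526 and 3157 CPM in NOR. The groups did not overlap and the log2 fold change was 0.61 (SE 0.17, unadjusted p = 0.00768), but the adjusted p in edgeR was 0.991 and in DESeq2 0.214. A U1 copy at chr3:7399482-7399645 had 70.6, 75.3 and 80.0 CPM in STZ and 65.1, 59.5 and 51.3 CPM in NOR (log2 fold change 0.39, SE 0.13). The lower copy had 118, 149 and 276 CPM in STZ and 788, 853 and 123 CPM in NOR, where NOR replicate 3 was as low as STZ replicate 1. Over all 46 U1 loci tested, 24 had a fold change above 0 and 22 below. Of these, 5 had all STZ libraries above all NOR libraries (3.8% of all loci tested did) and 0 had them all below (5.96% of all loci). The family sum, given above, overlapped between groups. Of the 21 U2 loci tested, 18 had a fold change above 0, but the U2 sum overlapped as well. Among U2 copies, the one at chr10:86430067-86430256 inside Ikzf3 had 1220, 1606 and 1013 CPM in STZ and 983, 1082 and 689 CPM in NOR (log2 fold change 0.51, SE 0.24), with overlap.

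The misc_RNA class had 1 locus with an unadjusted p under 0.05. AABR07000392 (chr1:11907722-11915927, minus strand, 8206 bases) had 814, 947 and 687 CPM in STZ, against 517, 498 and 684 CPM in NOR, a log2 fold change of 0.56 (SE 0.18, adjusted p in edgeR 0.991). It lies 1128 bases from a locus annotated as 5.8S ribosomal RNA, and STZ replicate 3 and NOR replicate 3 were almost equal. Whether its reads are ribosomal was not tested. The share of counts on the misc_RNA class, given above, separated the groups only with this locus included. The loci annotated as rRNA held together 0.00292% to 0.00863% of the counts of a library, and 98.3% of these came from a locus of 58312 bases named 5S_rRNA inside Gpm6a. The main 7SK copy had 1776, 1941 and 1805 CPM in STZ, against 1255, 1728 and 1743 CPM in NOR (log2 fold change 0.26, SE 0.15), with NOR replicate 1 low.

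In the snoRNA class 4 of 346 loci tested (1.16%) had an unadjusted p under 0.05 in edgeR, and in the scaRNA class 2 of 20, against 4.14% of all loci tested. SNORA71, a box H/ACA guide at chr3:154845987-154846116, had 23, 22 and 16 counts in STZ, against 7, 6 and 6 counts in NOR (log2 fold change 1.86, SE 0.67). It is 1 of 5 loci of that name, and with these summed the log2 fold change was 0.31 with overlapping groups. A longer locus of mixed type spans it, has SNORA71 in its joined name and is not a member. That locus had 3.49, 2.58 and 2.46 FPKM in STZ and 3.19, 3.60 and 3.21 FPKM in NOR (log2 fold change -0.20, SE 0.18). AABR07012762, opposite Magi3, had 55, 25 and 47 counts in STZ and 18, 15 and 22 counts in NOR (log2 fold change 1.36, SE 0.49). In the other direction, the SNORA70 locus inside Trmt10c, a subunit of mitochondrial RNase P, had 3, 3 and 2 counts in STZ, against 24, 6 and 19 counts in NOR (log2 fold change -2.36, SE 0.89). With the 22 loci of that name summed, the log2 fold change was -0.19 and the groups overlapped. These rest on small counts, and the adjusted p in edgeR was 0.991 for all 3. The better covered Scarna10 had 80.2, 78.4 and 77.6 CPM in STZ and 74.3, 68.7 and 72.8 CPM in NOR, without overlap at a log2 fold change of 0.16 (SE 0.09). The scaRNA locus AABR07034393 of 5395 bases had 20, 48 and 67 counts in STZ, against 1026, 16 and 1154 counts in NOR (log2 fold change -3.73, SE 1.28). NOR replicates 1 and 3 carried that difference, and NOR replicate 2 was below every STZ library in CPM.

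Among miRNA loci, 4 of 241 (1.66%) had an unadjusted p under 0.05 in edgeR, against 4.14% of all loci tested. They were AABR07045391, AABR07044574, AABR07008505 and AC112062, the last with 268 summed counts and named after its values had been seen. AABR07045391, a short locus opposite Fig4 (chr20:45977029-45977142), had 29, 10 and 15 counts in STZ, against 1, 3 and 2 counts in NOR (log2 fold change 3.20, SE 0.86, unadjusted p = 0.00695, adjusted p in edgeR 0.991). AABR07044574, on the strand of its host Rrp1, a ribosome processing factor, had 1, 0 and 0 counts in STZ and 9, 12 and 8 counts in NOR. AABR07008505 inside Pdzd2 had 1, 1 and 0 counts in STZ and 58, 145 and 0 counts in NOR, and was named after its values had been seen because its DESeq2 adjusted p of 0.0508 was the lowest of all members. NOR replicate 3 had no counts there, so its groups overlapped. The next loci did not reach that p. Mir365b had 22, 34 and 16 counts in STZ, against 2, 10 and 10 counts in NOR (log2 fold change 1.93, SE 0.84, unadjusted p in edgeR 0.0543). A long noncoding RNA locus whose joined name also holds Mir365b overlapped between groups. It had 3.36, 4.83 and 2.99 FPKM in STZ and 4.08, 3.21 and 2.19 FPKM in NOR (log2 fold change 0.27, SE 0.28). Mir877, a mirtron made by splicing from Abcf1, had 3, 4 and 2 counts in STZ and 17, 8 and 17 counts in NOR (log2 fold change -1.96, SE 0.84, unadjusted p in edgeR 0.0504), while Abcf1 itself had 10.4, 10.9 and 8.34 FPKM in STZ and 11.5, 11.04 and 8.93 FPKM in NOR. Gm22953 inside Ppip5k1 had 3.61, 3.31 and 2.94 CPM in STZ, below the 4.48, 3.71 and 4.19 CPM in NOR (log2 fold change -0.30, SE 0.20, unadjusted p in edgeR 0.18).

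Fold changes of members and hosts were compared over the 400 same-strand pairs in which both were tested, from 344 hosts. The sign was the same in 213 pairs (53.3%), the standard deviation of the log2 fold changes was 0.761 for members and 0.262 for hosts, and Pearson's r was -0.04, given as a description since the pairs share their libraries. By class the share of pairs with the same sign ran from 5 of 13 for scaRNA (38.5%) to 70 of 108 for miRNA (64.8%). Pearson's r of the fold changes ran by class from -0.15 for miRNA to 0.26 for snRNA, so the 2 measures ranked the miRNA pairs differently. Levels went together more closely over the same pairs, with r = 0.30 between the log2 FPKM of member and host, but not in every class. That r was 0.47 for 108 miRNA, 0.44 for 13 scaRNA and 0.33 for 194 snoRNA pairs. It was 0.0003 for 63 snRNA and -0.08 for 20 misc_RNA pairs.

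Proteins that make or carry small RNAs were taken from a list of 115 symbols, among them older and newer names of the same gene, of which 107 were found and 103 tested. None was called by edgeR, DESeq2 or limma, and 2 had an unadjusted p under 0.05 in edgeR (background 4.14%), both higher in STZ. Lsm10, a ring protein of the U7 particle that trims histone mRNA ends, had 2.82, 2.80 and 2.79 FPKM in STZ, against 1.95, 1.92 and 2.13 FPKM in NOR (log2 fold change 0.51, SE 0.16, adjusted p in edgeR 0.991). The U7 loci themselves summed to 1.34, 1.49 and 1.74 CPM in STZ and 1.35, 1.53 and 1.64 CPM in NOR. Tut4, which adds uridines to miRNA precursors, had 3.52, 4.202 and 5.26 FPKM in STZ and 3.19, 3.30 and 3.69 FPKM in NOR (log2 fold change 0.37, SE 0.15), with overlap. Of the 22 miRNA processing genes tested 14 had a fold change above 0, against 49.8% of all loci tested. Below 0 were 9 of 11 box C/D proteins and 11 of 14 proteins of the 7SK and signal recognition particles. The same held for 7 of 10 box H/ACA proteins, 8 of 10 proteins of RNase P and MRP and 18 of 36 proteins of snRNP assembly. Median log2 fold changes of these lists were small, from -0.099 for RNase P and MRP to 0.041 for miRNA processing. Drosha, the nuclease that cuts the hairpin out, had 7.34, 8.46 and 7.90 FPKM in STZ and 7.14, 7.41 and 6.603 FPKM in NOR.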

How the data were processed

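RNA of corneal epithelium was measured in 3 STZ and 3 NOR libraries. The submitters' processing notes name cutadapt, FastQC, Bowtie2 and the rat build rn6, and versions, assembler and counting program were not given in the sources used here. The authors deposited raw counts and FPKM per locus. The deposited FPKM hold 0.0001 where the count is 0, and this was set to 0. CPM are counts over the library total. Counts of loci whose mean FPKM reached 0.5 were tested with edgeR 4.0.16 (quasi-likelihood, TMM, R 4.3.3), with Benjamini-Hochberg adjustment over all 42551 loci. The count test was preferred because short loci have few counts at a given FPKM; limma 3.58.1 (the study's methods name limma on log2 values), here on quantile-normalized log2(FPKM + 1), and DESeq2 1.42.0 were alternatives. SE is the absolute log2 fold change over the square root of the quasi-F. Scripts were tested on simulated data. Hosts were found by rn6 coordinates, taking same-strand hosts first. Sums over copies of a family were chosen after the data were seen, in edgeR for names with 5 or more loci. Floors (3 counts) cover counting error only. Members and lists were chosen with earlier results of these data known. Named loci are, per class, those of highest FPKM, most counts, smallest p without overlap and extreme length, those on a list of known RNAs, with their hosts; other loci over 1000 bases and the smallest DESeq2 p were added after the data were seen. Other alternatives were normalizations, filters, the replicate block and leaving out each library. Sequences came from RefSeq GRCr8 and no coordinate of that build was used.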

Additional observations from a re-analysis of the deposited data

How the results depend on the processing

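No small RNA locus and no gene of the machinery list was called under any of the 15 alternatives run for the fit. The median log2 fold change of the members, 0.031 in the edgeR fit, was 0.0003065 with library totals only, 0.0072 with limma on log2(FPKM + 1) and 0.0095 with the replicate block, and leaving out each library gave -0.011 to 0.072. Deviations from the group means of same-numbered libraries correlated at 0.015, 0.033 and 0.028. Those of libraries with different numbers correlated at -0.051 to 0.022. Values this small cannot decide whether the libraries were handled in pairs. The fit with the replicate block called 0 members, as did the fit without it. The cause of the shifts in the median was not tested. The difference in the share of counts on members, 0.188 on the log2 scale, stayed positive in all alternatives, at 0.092 to 0.288 without single libraries and 0.117 without the locus with the most counts. The share of members inside another locus was 33.5% on the same strand only and 61.3% when loci without a type counted as hosts, which follows from those definitions. Of 418 values for 28 named loci under the alternatives, 416 kept their direction and stayed uncalled. The other values were 0.2854 for Mir675 without NOR replicate 2 and -0.08611 for RNase_MRP without STZ replicate 2, and over all libraries left out in turn Mir675 ran from -2.403 to 0.2854 and RNase_MRP from -0.08611 to 0.4609. Depth limits the loci under 60 counts most.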
